A study of Mus musculus with 6 samples.

Results

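The Ly6 genes are a cluster of closely related mouse genes whose products are small, disulfide-rich proteins held on the outer face of the cell membrane by a glycosylphosphatidylinositol (GPI) anchor. Their 7 members examined here, Ly6a, Ly6c1, Ly6c2, Ly6d, Ly6e, Ly6g and Ly6i, were taken by symbol from the 20394 genes of the count table, and all 7 were present. They were followed across 25 classes of cells, each defined by marker genes that include no Ly6 gene, and across the 6 libraries of the series. The cells were CD45+ leukocytes (CD45, encoded by Ptprc, is the common antigen of white blood cells) sorted from digested knee synovium of mice with antigen-induced arthritis and profiled by single-cell RNA sequencing of 3′ transcript ends.

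All mice were male C57Bl/6J animals bought at 8 weeks of age. Each was immunised subcutaneously with 10 µg of methylated bovine serum albumin (mBSA) in complete Freund's adjuvant and challenged with 100 µg of mBSA in the knee joint on day 21. From the day of challenge 2 samples received intraperitoneal PBS as vehicle and 4 received 300 µg of PEPITEM, a peptide inhibitor of leukocyte migration across endothelium, and tissue was collected 3 days after challenge. The count table pools the cells of all samples, and nothing in the sources used here ties a library number in it to a treatment. Library numbers 1 to 6 are therefore libraries of unknown treatment, vehicle and PEPITEM were not compared, and no test between samples was made.

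Several Ly6 proteins serve as surface markers in mouse immunology. Ly6a encodes Sca-1, used to isolate haematopoietic stem cells and also carried by activated lymphocytes. Ly6c1 and Ly6c2 encode the Ly6C antigens, by which inflammatory (classical) monocytes are told from patrolling (nonclassical) ones, and Ly6g encodes the Ly6G antigen of neutrophils. Ly6d marks lymphoid progenitors that are turning to the B lineage, Ly6e is a broadly expressed interferon-inducible member, and Ly6i is a less studied relative of Ly6a and the Ly6c genes.

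In the sorted synovial cells the genes differed in their class or classes of highest level, although some shared one. Ly6g led in immature neutrophil-like cells, Ly6c2 in classical monocyte-like and granulocyte precursor-like cells, Ly6d in plasmacytoid dendritic cell-like and B lineage classes, and Ly6i in nonclassical monocyte-like cells. Ly6c1 and Ly6a were highest in the few fibroblast-like cells. Ly6a was also high in type 2 innate lymphoid cell-like, T cell-like, inflammatory macrophage-like, type 2 dendritic cell-like and plasmacytoid dendritic cell-like cells. Ly6e was found in all 25 classes. It was highest, like Ly6d, in plasmacytoid dendritic cell-like cells and lowest in immature neutrophil-like cells.

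Classes were drawn from 32953 cells, of which 24248 (73.6%) met the marker rule of 1 class only, 5984 met none and 2721 met several. Levels are CPM, the unique molecular identifiers (UMIs) of a gene summed over the cells of a class per 1000000 UMIs of those cells. Each CPM has an exact Poisson interval and each percent of positive cells (cells with at least 1 UMI) an exact Clopper-Pearson interval, both at 95% and both covering counting error only. The libraries held 47273569 to 123367661 UMIs and 2919 to 9345 cells, with a median of 9923 to 14001 UMIs per cell. The class median ran from 3927.5 UMIs per mast cell-like cell to 34980.5 per granulocyte precursor-like cell, so positive shares are also given after every cell was thinned to 3000 UMIs. Of 32815 distinct barcodes, 138 occurred in more than 1 library. Ptprc was 32.1 CPM in the fibroblast-like cells and 188 to 2335 CPM in the other 24 classes. The fibroblast-like cells thus held little mRNA for the antigen used in the sort. The antigen itself was not measured per class.

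The 7 genes lie together on chromosome 15 of the mm10 (GRCm38) build, within 397 kb that hold 14 protein-coding genes. In the order of the chromosome they are Ly6d (chr15:74762056-74763620, minus strand), Ly6e (chr15:74955051-74959905, plus), Ly6i (chr15:74979534-74983430, minus), Ly6a (chr15:74994877-74998031, minus), Ly6c1 (chr15:75044018-75048830, minus), Ly6c2 (chr15:75108158-75111970, minus) and Ly6g (chr15:75155240-75159126, plus). Some neighbours on the chromosome shared the class of their highest level and others did not. Ly6d and Ly6e were both highest in plasmacytoid dendritic cell-like cells, and Ly6a and Ly6c1 both in fibroblast-like cells. Ly6c1 and Ly6c2, 98.2% identical over the last 500 bases of their transcripts, had their highest levels in fibroblast-like and in classical monocyte-like cells, and Ly6a and Ly6i, 89.9% identical, in fibroblast-like and in nonclassical monocyte-like cells.

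Such likeness bears on how 3′ reads are assigned to genes. Among stretches of 90 bases in the last 500 bases of each transcript, 134 of 693 (19.3%) of Ly6c2 also occur anywhere in a transcript of Ly6c1, and 228 of 1652 (13.8%) of Ly6c1 occur anywhere in a transcript of Ly6c2 or Ly6a. No such stretch from the transcript ends of the other 5 members occurs in a transcript of another gene. The split of reads between Ly6c1 and Ly6c2 is therefore uncertain in part, and its effect on these counts was not tested.

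For Ly6c1, Ly6c2 and Ly6g, the members with a matched promoter window, the sequences just before their transcription starts are shown. RefSeq windows of GRCm38.p6 were matched for 3 of the 7 members, and only the part outside the annotated gene is printed, 5′ to 3′ on the strand of the gene. Ly6c1 covers chr15:75048838-75049087 on the minus strand, Ly6c2 chr15:75111972-75112221 on the minus strand and Ly6g chr15:75155011-75155239 on the plus strand. Capitals mark matches on either strand to GAGGAAGT, a word of the type bound by the myeloid factor PU.1, or to TTNNGNAA, a word of the type bound by C/EBP factors. The words were chosen after the sequences had been seen.
Ly6c1: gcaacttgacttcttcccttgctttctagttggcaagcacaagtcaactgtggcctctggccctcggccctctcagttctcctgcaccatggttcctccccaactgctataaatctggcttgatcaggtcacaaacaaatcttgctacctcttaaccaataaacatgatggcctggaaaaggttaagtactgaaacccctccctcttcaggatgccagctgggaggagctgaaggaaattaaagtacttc
Ly6c2: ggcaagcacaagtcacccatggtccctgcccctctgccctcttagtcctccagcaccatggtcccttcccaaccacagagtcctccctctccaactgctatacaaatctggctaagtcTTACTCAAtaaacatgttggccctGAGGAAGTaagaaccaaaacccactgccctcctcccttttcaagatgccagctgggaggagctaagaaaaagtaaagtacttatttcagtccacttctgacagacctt
Ly6g: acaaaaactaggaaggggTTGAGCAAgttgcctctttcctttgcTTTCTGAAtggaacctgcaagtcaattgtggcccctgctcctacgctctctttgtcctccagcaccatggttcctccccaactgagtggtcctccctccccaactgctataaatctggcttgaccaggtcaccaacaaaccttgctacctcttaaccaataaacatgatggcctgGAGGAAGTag

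The Ly6c2 and Ly6g windows each hold 1 GAGGAAGT and the Ly6c1 window holds 0. TTNNGNAA occurs 1 time before Ly6c2, 2 times before Ly6g and 0 times before Ly6c1. Of 32851 windows of 250 bases before mouse gene starts, 2.44% hold GAGGAAGT and 36.8% hold TTNNGNAA. The aligned parts of the windows were 87.0% identical between Ly6c1 and Ly6g over 184 bases, 84.0% between Ly6c2 and Ly6g over 169 bases and 81.4% between Ly6c1 and Ly6c2 over 210 bases. These matches describe letters only and do not show that a factor binds.

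**Figure D1:**
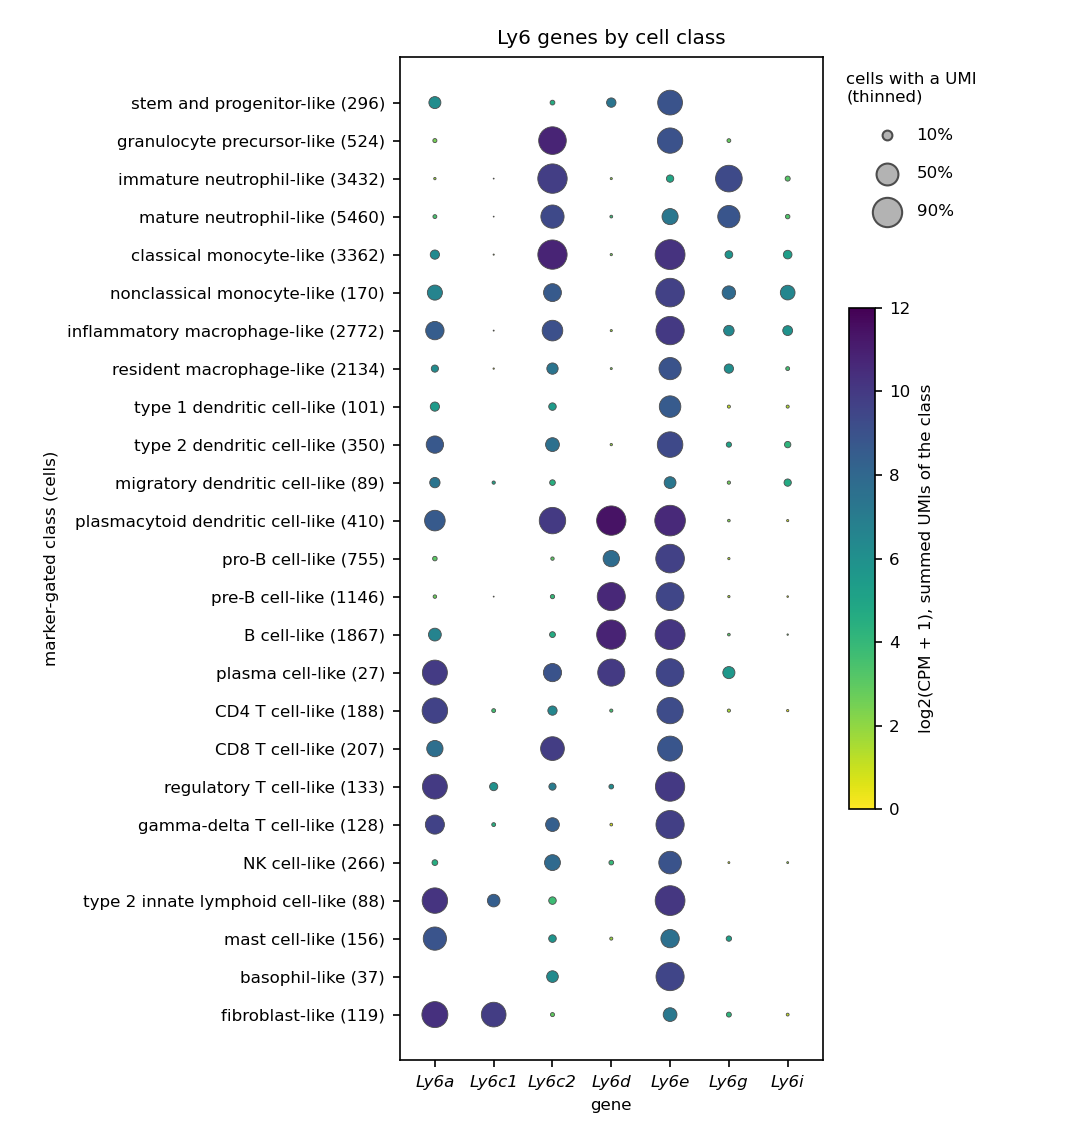
Level and detection of the 7 Ly6 genes in 25 marker-gated classes (number of cells in brackets). Colour is log2(CPM + 1) of the UMIs summed over a class, and circle area is the percent of cells with a UMI after each cell was thinned to 3000 UMIs. Ly6e has a circle in every row, although a small one in immature neutrophil-like cells. The large circles of Ly6d, Ly6g and Ly6c1 each lie in a few rows.

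In the granulocyte series Ly6g, Ly6c2 and Ly6e each followed a course of their own. Immature neutrophil-like cells carry the secondary granule genes Ltf, Camp and Ngp, granulocyte precursor-like cells the primary granule genes Mpo and Elane, and mature neutrophil-like cells Cxcr2, Retnlg and Mmp9. Ly6g stood at 6.04 CPM in granulocyte precursor-like cells, at 621 CPM (95% interval 615 to 627) in immature neutrophil-like cells and at 449 CPM (442 to 456) in mature neutrophil-like cells. The precursor level was 0, 4.45, 7.72 and 8.34 CPM in libraries 2, 4, 5 and 6. In libraries 1 to 6 the immature level was 475, 504, 593, 591, 637 and 692 CPM, and the mature level was 283, 352, 250.3, 415, 493 and 523 CPM. Ly6g was 103-fold (85.5 to 125) higher in immature neutrophil-like than in granulocyte precursor-like cells, in 4 of 4 libraries with enough cells of both, and 1.38-fold lower in mature than in immature cells, in 6 of 6 libraries. With a stricter marker rule the immature and mature levels were 553 and 549 CPM, and the precursor level was 8.33 CPM with that rule and 40.4 CPM when cells were classed by clustering.

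Ly6c2 was highest at the precursor stage and lower at each later one. It was 1794 CPM (1775 to 1813) in granulocyte precursor-like cells, with 1751, 2072, 1867 and 1703 CPM in libraries 2, 4, 5 and 6. In immature neutrophil-like cells it was 895 CPM, between 759 and 944 CPM by library, and in mature neutrophil-like cells 655 CPM, between 483 and 743 CPM. The immature class was 2.01-fold (1.98 to 2.03) lower than the precursor class in 4 of 4 libraries, and the mature class 1.37-fold lower than the immature class in 6 of 6.

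Ly6e, in contrast, dipped in the middle of the series. It was 506 CPM in granulocyte precursor-like cells, 28.7 CPM in immature neutrophil-like cells (26.9, 33.6, 32.6, 14.3, 34.8 and 24.3 CPM in libraries 1 to 6) and 149 CPM in mature neutrophil-like cells (248, 108, 216, 128, 163 and 133 CPM). It was 17.6-fold lower in the immature than in the precursor class, in 4 of 4 libraries, and every library had more Ly6e in mature than in immature cells, by 5.18-fold over all cells. With clustering the order was the same, but the levels were 217, 56.5 and 111 CPM. Between the precursor and the immature class all 3 members with at least 20 CPM in either differed 2-fold or more. Of 6539 genes 57.5% did, so a change of that size was common in this pair. Ly6g reached 20 CPM in the immature class only. Ly6a, Ly6c1, Ly6d and Ly6i stayed under 20 CPM in the 3 granulocytic classes.

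**Figure D2:**
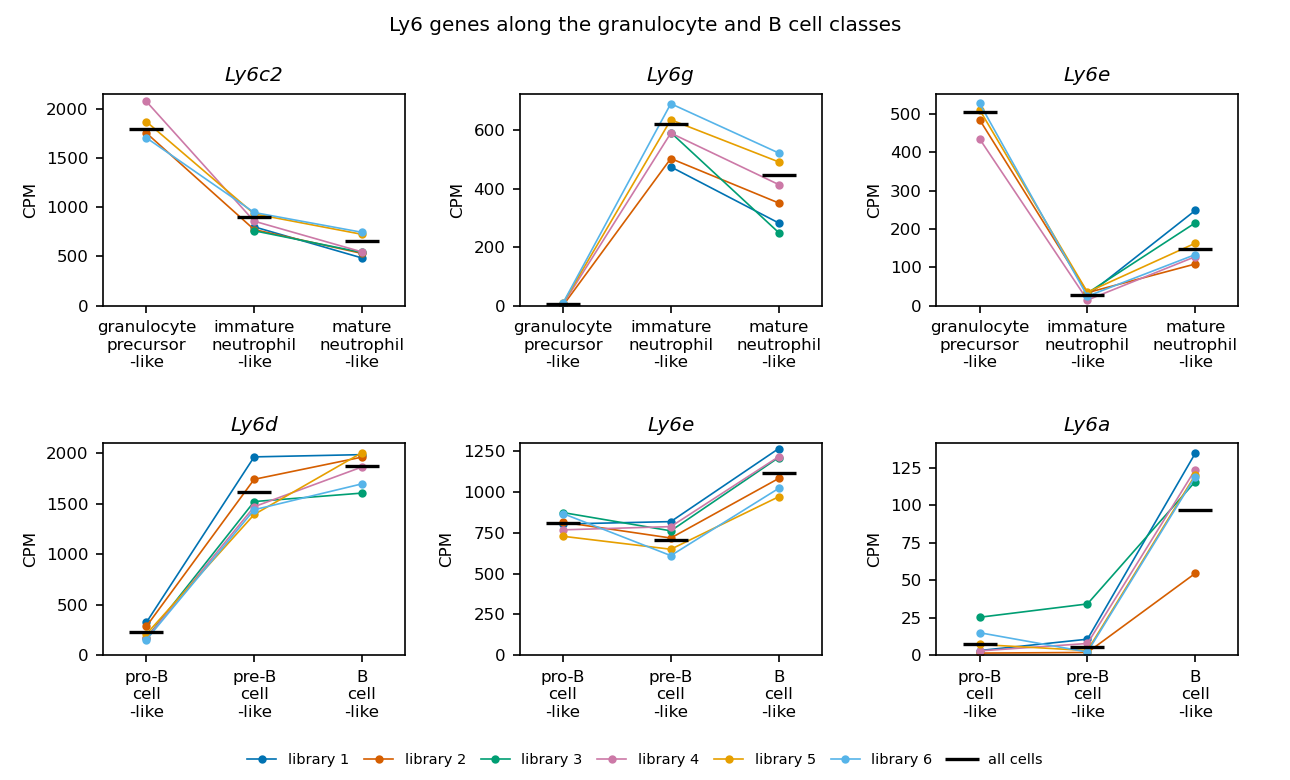
CPM of Ly6 genes along the granulocytic classes (upper row: Ly6c2, Ly6g, Ly6e) and the B lineage classes (lower row: Ly6d, Ly6e, Ly6a). Coloured points and lines are libraries 1 to 6 with at least 20 cells of the class and black bars are all cells of the class. Ly6g is near 0 in granulocyte precursor-like cells and 475 to 692 CPM in immature neutrophil-like cells, and Ly6d is 153 to 324 CPM in pro-B cell-like cells and at least 1392 CPM in pre-B cell-like cells.

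Single cells showed the same order. After thinning, 78.3% of granulocyte precursor-like cells had a UMI of Ly6c2 without Ly6g and 1.54% had both. In immature neutrophil-like cells 67.5% had both, 23.0% Ly6c2 only and 6.87% Ly6g only, and the 67.5% was close to the 67.3% that the product of the separate shares gives. In mature neutrophil-like cells 39.5% had both, against a product of 29.3%. The products here and below were taken over cells pooled from all libraries. Differences between libraries alone can move joint shares away from them. At the deposited depth, with a median of 16362 and 5379 UMIs per cell in the immature and mature classes, both genes were found together in 94.6% and 48.2% of cells.

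**Figure D3:**
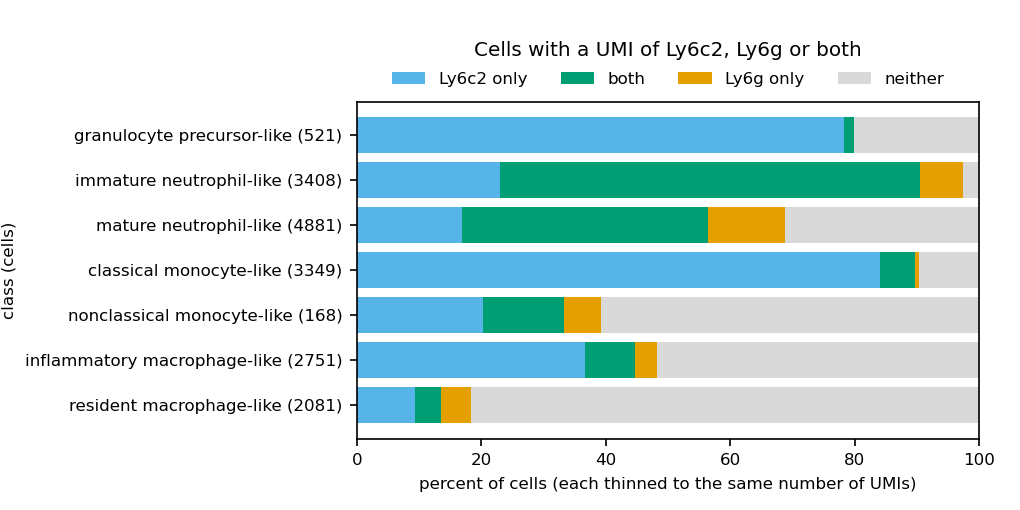
Percent of cells with a UMI of Ly6c2 only, of both genes, of Ly6g only or of neither, after each cell was thinned to 3000 UMIs, in 7 myeloid classes (cells left after thinning in brackets). Both genes are found in 67.5% of immature neutrophil-like cells and in 5.76% of classical monocyte-like cells, most of which have Ly6c2 only.

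Among monocytes and macrophages, Ly6c2 differed from class to class. Classical monocyte-like cells, which carry the chemokine receptor gene Ccr2, had 1799 CPM (1789 to 1809), with 1986, 1501, 1196, 1348, 1922 and 2164 CPM in libraries 1 to 6. This interval overlaps that of granulocyte precursor-like cells, and the ratio of those classes was 0.997 (0.985 to 1.01). Without library 1, 5 or 6, or with a stricter marker rule, the precursor class stood above the monocytes. Nonclassical monocyte-like cells (Ace, Cd300e, Treml4) had 399 CPM, 4.51-fold lower than the classical class and lower in 4 of 4 libraries, although they had 28.8 CPM when cells were classed by clustering. Inflammatory macrophage-like cells (C1qa, Arg1, Spp1) had 538 CPM, 3.34-fold below the classical monocyte-like cells and lower in 6 of 6 libraries. Resident macrophage-like cells (Lyve1, Timd4, Vsig4) had 166 CPM, lower again by 3.24-fold, in 6 of 6, and 129 CPM with clustering.

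Ly6a had its own order in these cells. It was 363 CPM (358 to 368) in inflammatory macrophage-like cells, 79.4 CPM in classical monocyte-like cells and 75.0 CPM in resident macrophage-like cells. The inflammatory class was 4.57-fold (4.44 to 4.71) above the monocytes and 4.84-fold above the resident macrophages, and in both cases the order held in 6 of 6 libraries. With clustering the 3 levels were 366, 12.2 and 48.2 CPM, so the classical monocytes were then the lowest. Of the 5 members with enough counts, 2 (Ly6a and Ly6c2, in opposite directions) differed at least 2-fold between inflammatory macrophage-like and classical monocyte-like cells, where 12.1% of 6251 genes did. High Ly6a was not confined to macrophages. It was 425 CPM in type 2 dendritic cell-like cells (90.8 to 841 CPM by library) and 397 CPM in plasmacytoid dendritic cell-like cells.

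Ly6i, a low-level gene throughout, was highest in nonclassical monocyte-like cells at 88.4 CPM (76.7 to 101), with 35.1, 116, 102 and 95.6 CPM in libraries 2, 4, 5 and 6, and with clustering it was 158 CPM there and 14.7 CPM in classical monocyte-like cells. It was 58.2 CPM in inflammatory macrophage-like, 39.1 CPM in classical monocyte-like and 11.6 CPM in resident macrophage-like cells. Nonclassical exceeded classical monocyte-like cells 2.26-fold in 4 of 4 libraries, whereas inflammatory macrophage-like cells exceeded classical monocyte-like cells in 3 of 6 libraries only. Outside the myeloid classes Ly6i was under 5 CPM over all cells of a class, although it was 28.3 CPM in library 1 of B cell-like cells. In inflammatory macrophage-like cells Ly6a and Ly6i were found together in 6.58% of thinned cells, against 3.61% from the product of their shares. Both genes differed widely between libraries in this class, with library 2 lowest for each. Joint shares within single libraries were not computed.

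Ly6e was near 1000 CPM in both monocytes and inflammatory macrophages. It was 1195 CPM in classical monocyte-like cells (861 to 1429 CPM by library), 1034 CPM in inflammatory macrophage-like cells and 815 CPM in nonclassical monocyte-like cells. Resident macrophage-like cells had 484 CPM, 2.14-fold less than the inflammatory class in 6 of 6 libraries. Set against immature neutrophil-like cells, classical monocyte-like cells had 41.6-fold more Ly6e, or 22.8-fold with clustering.

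Ly6g was also counted in the mononuclear classes, at 238 CPM in nonclassical monocyte-like, 82.1 CPM in inflammatory macrophage-like, 67.7 CPM in resident macrophage-like and 53.8 CPM in classical monocyte-like cells. Neutrophil markers were present there too. All 8 markers of immature neutrophils reached at least 5 CPM in each of these classes, and they summed to 35577, 8478, 6334 and 8470 CPM in the same order, against 106279 CPM in immature neutrophil-like cells. Retnlg, a neutrophil gene, was 6041, 3121, 2668 and 1253 CPM in these classes. CD8 T cell-like cells had 0 UMIs of Ly6g, where a floor of 3 counts is 1.26 CPM. Their 8 markers summed to 2.10 CPM and none reached 5 CPM. Regulatory T cell-like cells, however, had 0.852 CPM of Ly6g although all 8 markers reached 5 CPM and summed to 1695 CPM. In migratory dendritic cell-like cells the markers summed to 1834 CPM and Ly6g was 5.29 CPM. Ly6c2 was itself 895 CPM in immature neutrophil-like cells. Both genes were found together in 13.1% of thinned nonclassical monocyte-like cells (product of the shares 6.35%) and 7.96% of inflammatory macrophage-like cells (5.17%). The values were 4.18% (1.22%) in resident macrophage-like and 5.76% (5.66%) in classical monocyte-like cells. The part of neutrophil RNA in the Ly6g and the Ly6c2 of the mononuclear classes was not tested.

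In the B lineage Ly6d set pro-B cell-like cells apart from the later stages. Pro-B cell-like cells (Vpreb1, Igll1, Dntt) had 225 CPM, with 324, 285, 168, 166, 208 and 153 CPM in libraries 1 to 6. Pre-B cell-like cells had 1613 CPM (1961, 1739, 1519, 1468, 1392 and 1438 CPM), and B cell-like cells (Ms4a1, Ighd) 1874 CPM (1984, 1959, 1603, 1862, 2003 and 1695 CPM). No pro-B value reached any pre-B value, and the 7.16-fold step (6.84 to 7.49) stood in 6 of 6 libraries. B cell-like cells stood 1.16-fold above pre-B cell-like cells, also in 6 of 6 libraries, but the ranges of the libraries overlapped and the order turned with the processing. It was 1585 CPM in B and 1607 CPM in pre-B cell-like cells under a stricter marker rule, and 1952 and 1975 CPM as a mean over cells.

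Positive shares followed the levels. Ly6d was found in 44.8% of pro-B cell-like, 90.6% of pre-B cell-like and 94.6% of B cell-like cells, or 27.9%, 82.5% and 89.5% after thinning. In stem and progenitor-like cells (Kit, Cd34, Meis1) it was found in 12.5% of 296 cells only, but with 25.2 UMIs per positive cell, which gave 166 CPM. The 27 plasma cell-like cells had 989 CPM.

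Ly6a and Ly6e also differed along the B lineage. Ly6a was 7.32 CPM in pro-B cell-like and 5.77 CPM in pre-B cell-like cells, and 97.0 CPM in B cell-like cells, 16.8-fold (12.3 to 23.6) over pre-B and higher in 6 of 6 libraries, and 9.15-fold under the stricter rule. Ly6e was 808, 708 and 1118 CPM in pro-B, pre-B and B cell-like cells, 1.58-fold higher in B than in pre-B cell-like cells in 6 of 6 libraries. From pro-B to pre-B it was lower in 4 of 6 libraries. Of the 4 members with enough counts, 3 differed at least 2-fold between B and pro-B cell-like cells, against 26.8% of 7201 genes. These were Ly6d, Ly6a and Ly6c2, the last at 24.4 CPM in B and 7.52 CPM in pro-B cell-like cells. Ly6a and Ly6c2 reached 20 CPM in the B class only.

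The highest Ly6d level of any class was in plasmacytoid dendritic cell-like cells (Siglech, Ccr9), the interferon-producing dendritic cells. There it was 2725 CPM (2679 to 2771), with 3226, 2764, 2471, 3374 and 2449 CPM in libraries 1, 2, 4, 5 and 6, and it exceeded B cell-like cells by 1.45-fold in 5 of 5, or by 1.03-fold with clustering. Type 2 dendritic cell-like cells (Cd209a) had 2.79 CPM, a ratio of 978-fold (633 to 1601). The plasmacytoid class also had 1004 CPM of Ly6c2 (641 to 1645 CPM by library), 41.2-fold that of B cell-like cells (112-fold with clustering), and the highest Ly6e, 1555 CPM (1521 to 1591), although a nonclassical monocyte-like cluster led when cells were clustered. Ly6c2 and Ly6d were found together in 65.7% of its thinned cells, where the product of the shares gives 65.9%.

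T cell-like classes were told apart by Ly6c2 and Ly6a in opposite directions. CD8 T cell-like cells had 935 CPM (896 to 974) of Ly6c2, with 1038, 1042, 722, 933, 882 and 856 CPM in libraries 1 to 6, and CD4 T cell-like cells 89.5 CPM, with 138, 216, 4.75, 46.8, 83.9 and 78.9 CPM. The ranges did not overlap, and the ratio was 10.5-fold (8.97 to 12.2), higher in 6 of 6 libraries. Ly6a was 203 CPM in CD8 and 796 CPM in CD4 T cell-like cells, 3.92-fold lower in the former and lower in 6 of 6. Ly6e was 1.34-fold lower in CD8 T cell-like cells, in 6 of 6. Of the 3 members with enough counts, 2 differed at least 2-fold between these classes, where 12.5% of 6375 genes did.

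Gamma-delta T cell-like cells (Trdc, Cd163l1) depended on how strictly the class was drawn. Their Ly6c2, 341 CPM over 128 cells, was 3.81-fold that of CD4 T cell-like cells and higher in 5 of 5 libraries, but under a stricter rule that left 66 cells it was 12.4 CPM against 110 CPM. Their Ly6a, 804 CPM, differed from that of CD4 T cell-like cells by a ratio of 1.01 (0.934 to 1.09). Under the stricter rule their Ly6a was 1451 CPM and then the highest of the 22 classes compared. At the deposited depth 43.0% of the 128 cells had Ly6a only, 15.6% had Ly6c2 only and 8.59% had both, while the product of the shares gives 12.5%. Of 126 thinned cells 36.5% had Ly6a only, 18.3% had Ly6c2 only and 1.59% had both, against a product of 7.56%. In CD8 T cell-like cells 33.3% had both, 36.7% Ly6c2 only and 10.1% Ly6a only at the deposited depth, and 19.0%, 40.0% and 8.78% after thinning. The Ly6a of the gamma-delta class ranged from 69.1 CPM in library 2 to 1390 CPM in library 6.

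Regulatory T cell-like cells (Foxp3, Ctla4) had 1008 CPM of Ly6a and 1024 CPM of Ly6e, the latter 1.68-fold above CD4 T cell-like cells in 3 of 3 libraries. NK cell-like cells had little Ly6a, 22.5 CPM, 9.02-fold below CD8 T cell-like cells and lower in 6 of 6 libraries, and 15.2 CPM under the stricter rule. Their Ly6c2, 241 CPM, was 3.88-fold below CD8 T cell-like cells, again in 6 of 6. The 88 type 2 innate lymphoid cell-like cells (Gata3, Il1rl1, Il5) had 1189 CPM of Ly6a, 1099 CPM of Ly6e and 12.6 CPM of Ly6c2. Only library 6 held 20 of them, and its Ly6a was 693 CPM.

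**Figure D4:**
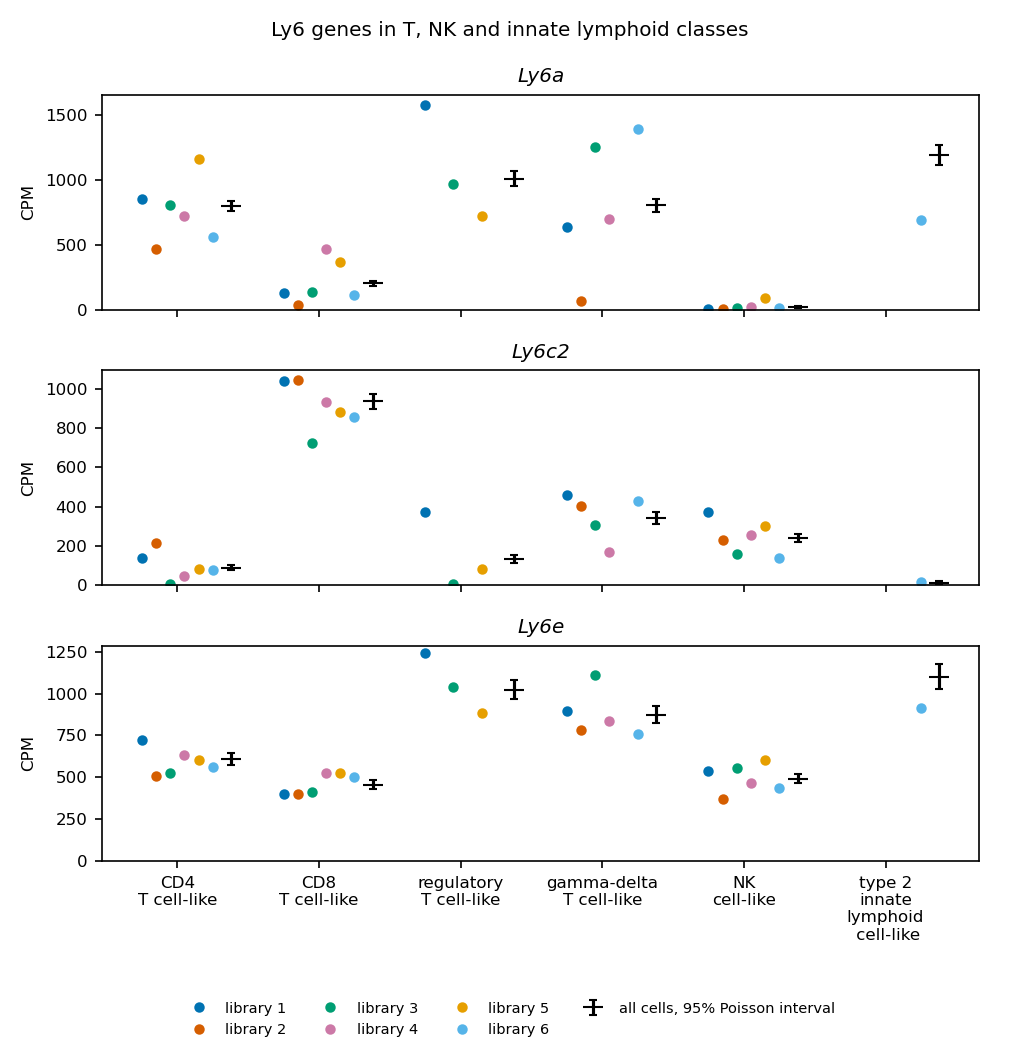
CPM of Ly6a, Ly6c2 and Ly6e in T, NK and type 2 innate lymphoid cell-like classes. Coloured points are libraries with at least 20 cells of the class and black bars are all cells of the class with the exact 95% Poisson interval. The Ly6c2 points of CD8 T cell-like cells (722 to 1042 CPM) lie above every point of the other classes, and the Ly6a points of NK cell-like cells lie at or below 87.1 CPM.

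In the 119 fibroblast-like cells (Col1a1, Dcn, Prg4) Ly6a was 1299.6 CPM (1248 to 1353), with 1607 and 1313 CPM in libraries 1 and 5, the only ones with 20 such cells. Its interval overlaps that of type 2 innate lymphoid cell-like cells (1114 to 1267), which led without library 1. Ly6c1 was 932 CPM (888 to 978), with 1349 and 738 CPM in the same libraries. The next class for Ly6c1, type 2 innate lymphoid cell-like cells, had 348 CPM over all cells but 5.73 CPM in library 6. Ly6a and Ly6c1 were found together in 59.5% of thinned fibroblast-like cells, against 45.1% from the product of their shares. Over all cells Ly6c1 was 6.31 CPM, and the 33.0 CPM of migratory dendritic cell-like cells came from 1 cell.

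Ly6a, known for stem cells of the marrow, was not highest in the stem and progenitor-like class. It was 69.6 CPM there, with 39.5% of cells positive, and 4.75 CPM in granulocyte precursor-like cells, 14.7-fold lower, in 3 of 3 libraries. Ly6c2 ran opposite, 23.7 CPM in stem and progenitor-like cells and 75.6-fold higher in the granulocyte precursor-like class, or 344-fold under the stricter rule.

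Shares of positive cells were read beside a class with few UMIs of the gene. Ly6g was found in 95.2% of immature neutrophil-like cells (median 16362 UMIs) and in 0 of 207 CD8 T cell-like cells (median 10430 UMIs). It was found, however, in 31.8% of nonclassical monocyte-like, 30.3% of inflammatory macrophage-like, 19.6% of resident macrophage-like and 13.8% of classical monocyte-like cells, where the neutrophil markers were also counted. For Ly6c2 the shares were 96.4% in classical monocyte-like and 2.88% in pre-B cell-like cells, with medians of 17191 and 5290.5 UMIs, and 89.8% against 1.92% after thinning. Ly6d was found in 95.9% of plasmacytoid dendritic cell-like cells (median 11360 UMIs) and 1.22% of classical monocyte-like cells. Ly6a was found in 78.2% of fibroblast-like cells (median 13622 UMIs) and 2.42% of immature neutrophil-like cells. Ly6c1 was found in 71.4% of fibroblast-like cells and 0.107% of B cell-like cells (median 5835 UMIs). For Ly6i the share in nonclassical monocyte-like cells, 52.9%, was 22.6% after thinning, and 0.483% of CD8 T cell-like cells had a UMI. Ly6e had no class without it, with shares at the deposited depth from 22.5% (immature neutrophil-like) to 99.8% (plasmacytoid dendritic cell-like).

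Among members of at least 20 CPM in the 6 largest classes examined, the libraries differed most for Ly6a and Ly6i in monocytes and inflammatory macrophages. Wider ranges were seen in smaller classes, as for Ly6c2 with 4.75 to 216 CPM (45.5-fold) in CD4 T cell-like and 7.27 to 375 CPM (51.6-fold, 3 libraries) in regulatory T cell-like cells. In classical monocyte-like cells Ly6a was 317, 14.6, 208, 57.5, 77.3 and 26.6 CPM in libraries 1 to 6, a 21.8-fold range that only 3 of 5870 genes exceeded. In inflammatory macrophage-like cells it was 741, 33.9, 242, 321, 648 and 257 CPM, a 21.9-fold range that 4 of 5724 genes exceeded. Resident macrophage-like cells had 113, 17.6, 92.3, 58.8, 67.2 and 47.9 CPM, a 6.44-fold range. Library 2 was lowest in each of these classes, and without it the range was 11.9-fold in classical monocyte-like and 3.06-fold in inflammatory macrophage-like cells. The Ly6a level of classical monocyte-like cells was lower with clustering, as given above. The ranges of Ly6a here and of Ly6i below were recomputed only without each library, not with clustering or the stricter rule.

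Ly6i behaved likewise in the first 2 classes. It was 95.4, 7.85, 104, 44.3, 43.8 and 18.9 CPM in classical monocyte-like cells, a 13.3-fold range, and 65.9, 6.38, 53.5, 70.9, 127 and 43.1 CPM in inflammatory macrophage-like cells, a 19.9-fold range. Library 2 was again lowest, and without it the ranges were 5.52-fold and 2.95-fold. The median gene had a range of 1.39-fold to 1.49-fold in the 6 largest classes examined.

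Counted over the members with enough counts, the range reached 2-fold for 5 of 5 in inflammatory macrophage-like cells (10.2% of 5724 genes), 3 of 5 in classical monocyte-like cells (12.9% of 5870) and 3 of 4 in resident macrophage-like cells (14.5% of 6028). It did so for 2 of 4 in B cell-like (11.8% of 6200), 2 of 3 in mature neutrophil-like (12.2% of 3716) and 1 of 3 in immature neutrophil-like cells (7.02% of 4232). The smaller ranges included 1.46-fold for Ly6g in immature neutrophil-like cells and 1.25-fold for Ly6d in B cell-like cells. Ly6g was among the members counted in inflammatory macrophage-like (3.27-fold), classical monocyte-like (3.74-fold) and resident macrophage-like cells (4.86-fold). Ly6c2 was counted in the inflammatory (4.62-fold) and resident (2.98-fold) macrophage-like classes. Neutrophil markers were also found in these classes, and their part in these ranges was not tested.

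Ly6a and Ly6e are known interferon-inducible genes, so interferon-stimulated lists were read in the same libraries of 8 classes. The share of all genes of at least 20 CPM that were lowest in library 2 is given as the background. The counts over the lists had no such minimum and included genes under 20 CPM, such as Ifi44 at 0.419 CPM in CD8 T cell-like cells. A tie at 0 could also count as lowest in library 2, so counts and background are not fully alike. It was 14.8% in classical monocyte-like, 33.8% in inflammatory macrophage-like, 48.3% in resident macrophage-like, 22.6% in type 2 dendritic cell-like, 14.1% in B cell-like, 9.77% in mature neutrophil-like, 24.9% in CD4 T cell-like and 19.7% in CD8 T cell-like cells.

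The summed level of 9 interferon-gamma-stimulated genes, among them Irf1 and Gbp2, was 928, 138, 1188, 704, 550.4 and 304 CPM in classical monocyte-like cells and 784, 226, 1136, 1655, 1285 and 795 CPM in inflammatory macrophage-like cells. Library 2 was the lowest for 9 of the 9 genes in both classes, against 14.8% and 33.8% of all genes. In resident macrophage-like cells the sum was 269, 181, 631, 525, 294 and 279 CPM, with 8 of 9 genes lowest in library 2, against 48.3% of all genes. Type 2 dendritic cell-like and mature neutrophil-like cells had 8 and 7 of 9 genes lowest there, against 22.6% and 9.77% of all genes. In the lymphocytes fewer of the 9 genes were lowest in library 2, and the lowest sum lay in another library. The counts were still above the share of all genes in B cell-like and CD8 T cell-like cells, and near it in CD4 T cell-like cells. That share was 14.1% in B cell-like, 24.9% in CD4 T cell-like and 19.7% in CD8 T cell-like cells. In B cell-like cells 4 of 9 genes were lowest in library 2, with sums of 352, 204, 259, 169, 238 and 272 CPM and the lowest sum in library 4. In CD4 T cell-like cells 3 of 9 were, with sums of 600.4, 548, 580.1, 508, 864 and 610.0 CPM and again the lowest in library 4, and in CD8 T cell-like cells 5 of 9 were, with sums of 264, 289, 444, 354, 535 and 384 CPM and the lowest in library 1.

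The 10 type I interferon-stimulated genes, among them Isg15 and Ifit1, summed highest in library 1 in classical monocyte-like and inflammatory macrophage-like cells. Their sum was 1972, 292, 419, 362, 537 and 387 CPM in the former and 1873, 325, 643, 626, 843 and 466 CPM in the latter. Library 2 was lowest for 4 and 9 of the 10 genes, against 14.8% and 33.8% of all genes. It was also lowest for 9 of 10 in type 2 dendritic cell-like (22.6% of all genes), 7 in mature neutrophil-like (9.77%) and 6 in CD4 T cell-like cells (24.9%). The count was 5 in CD8 T cell-like (19.7%), 4 in resident macrophage-like (48.3%) and 0 in B cell-like cells (14.1%). The lowest sum of these genes was not in library 2 but in library 6 in resident macrophage-like (184 CPM), library 4 in B cell-like (29.2 CPM) and library 3 in CD4 T cell-like cells (99.9 CPM).

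Ly6a was lowest in library 2 in all 8 of these classes. Elsewhere it was not always so, since the lowest Ly6a of NK cell-like cells was in library 1 (4.27 CPM) and that of immature neutrophil-like cells in library 4 (0.131 CPM). Ly6i was lowest in library 2 in classical monocyte-like, inflammatory macrophage-like and mature neutrophil-like cells but not in resident macrophage-like or type 2 dendritic cell-like cells. The link between these genes and the lists, and the part of treatment in it, was not tested.

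**Figure D5:**
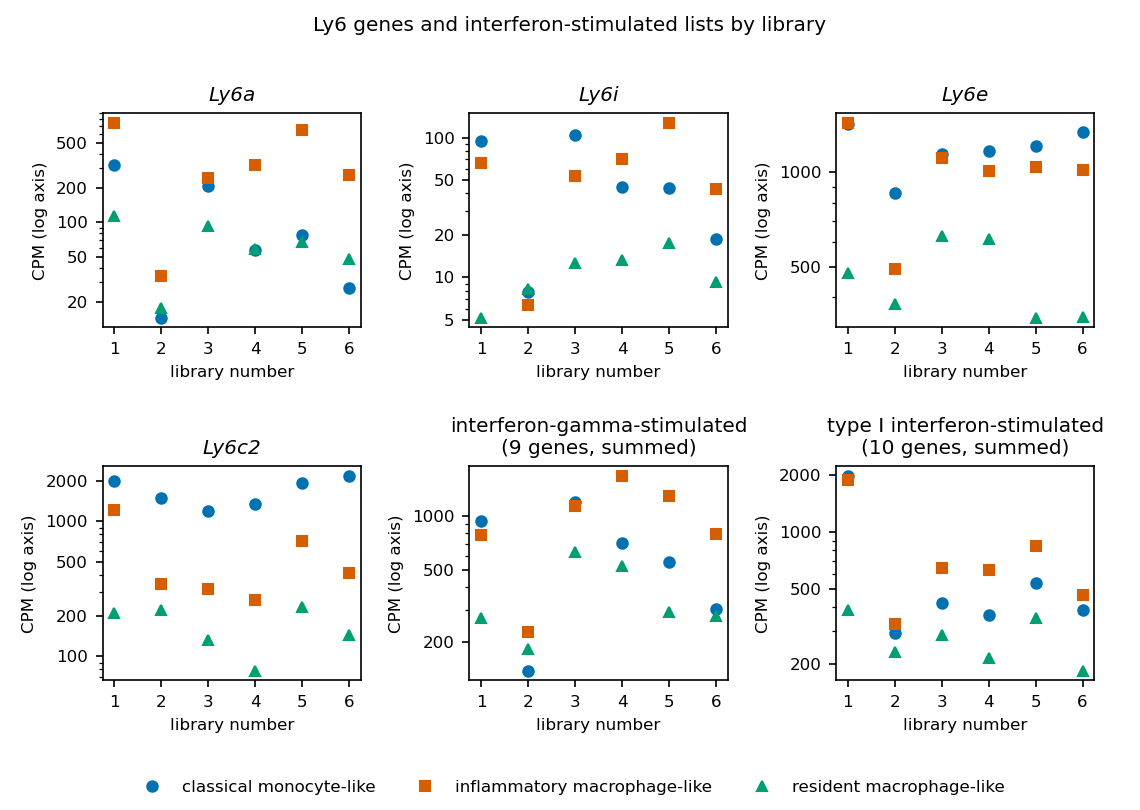
CPM (log axis) by library number in classical monocyte-like (circles), inflammatory macrophage-like (squares) and resident macrophage-like cells (triangles), for Ly6a, Ly6i, Ly6e and Ly6c2 and for the summed interferon-gamma-stimulated and type I interferon-stimulated lists of 9 and 10 genes. Ly6a is lowest in library 2 in all 3 classes (14.6, 33.9 and 17.6 CPM), as is the interferon-gamma-stimulated sum (138, 226 and 181 CPM), while Ly6c2 is not.

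Genes with the most similar pattern were sought over 106 sums of a class in a library, from 23 classes, as Pearson's r of log2(CPM + 1) among 9624 genes. These points share libraries and depth, so r is a description. Ly6g was most like Chil1 and 6430548M08Rik (r = 0.95 each), 9830107B12Rik, Scrg1 (0.94 each) and Ifitm6 (0.93). Ly6d was nearest to Cacna1e (0.91), Spib (0.90), a transcription factor gene of B and plasmacytoid dendritic cells, Iglc3, Mzb1 and Agbl1 (0.89 each). Ly6i was nearest to Sirpb1c (0.87), the Fc receptor gene Fcgr4 (0.85), the lectin genes Clec4n and Clec4a3 (0.84 each) and Il1rn (0.83).

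The other 4 members had weaker neighbours. For Ly6e they were AI504432 (0.82), Mndal and Cd48 (0.81 each), Psmb10 and Mrpl52 (0.79 each), and for Ly6a Gna13 (0.76), Nfatc2, Lncpint (0.74 each), Ttc19 (0.72) and Jak2 (0.71). For Ly6c2 they were Hsd11b1, Myo1f, Pstpip1 (0.74 each), Vsir (0.72) and Atp8b4 (0.71), and for Ly6c1 the fibroblast genes Prg4 (0.67), Igfbp7, Myoc (0.63 each), Igfbp5 (0.62) and Has1 (0.61). Between members r was 0.68 for Ly6g and Ly6i, 0.46 for Ly6a and Ly6c1, 0.44 for Ly6a and Ly6e and 0.43 for Ly6c2 and Ly6g. It was -0.49 for Ly6e and Ly6g and -0.40 for Ly6c2 and Ly6d.

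Of 38 other genes of the Ly6 and urokinase receptor family that were listed, 21 were in the table and 10 reached 5 CPM in at least 1 class. The share of all genes that do so is not given. Neither this count nor that of the GPI anchor genes below is therefore read as high or low. Some genes reached 5 CPM in a small class, as Lypd6 did in the 37 basophil-like cells. Plaur, the urokinase receptor gene, did so in 24 classes and was highest in mature neutrophil-like cells (1034 CPM). Cd177, a neutrophil surface gene, did so in 15 classes and was highest in immature neutrophil-like cells (905 CPM). Lypd6b was 136 CPM in the 37 basophil-like cells and 128 CPM in mature neutrophil-like cells. Lynx1 was highest in B cell-like cells (48.5 CPM), Ly6g5b in gamma-delta T cell-like cells (39.7 CPM) and Ly6k in plasmacytoid dendritic cell-like cells (13.8 CPM). Cd59a (12.7 CPM), Cd59b (5.17 CPM), Lypd6 (7.55 CPM) and Slurp1 (7.19 CPM) were low even in their highest class. All 6 genes listed for the GPI anchor were detected, at 15.5 to 47.2 CPM in the highest class of each. They are Pigk, Gpaa1, Pigs, Pigt and Pigu for its attachment and Piga for the first step of its synthesis.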

How the data were processed

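Cells were sorted for CD45 from digested synovium, and libraries were prepared with the Chromium 3′ v3.1 kit. Per the labels and the methods of the study, the authors aligned reads with Cell Ranger 7 to mm10, corrected for ambient RNA with SoupX, removed doublets with DoubletFinder and filtered cells by mitochondrial share and gene number. The deposited values are UMI counts per gene and cell, not normalized. Whether they were taken before or after the ambient RNA correction was not tested. No further doublet caller was run. Of the deposited entries 1724738 (1.68%) are stored as 0. They were counted as 0, so a count of 0 may not be an uncorrected count.

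A cell was put in a class when it held UMIs of enough marker genes of that class (28 marker rules, 25 classes with at least 20 cells), and cells that met several rules were left out, except that a mature neutrophil-like cell that also met the immature rule was counted as immature. The rules were set after marker counts had been seen, and the Ly6 members and all lists were chosen with earlier results of these data known. The names rest on rebuilt classes and may differ from those of the study.

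UMIs were summed per class to CPM. Exact intervals came from scipy 1.17.1 in Python 3.11.15. Library values needed 20 cells of the class, and fold ranges and class pairs used genes of at least 20 CPM. Thinning to 3000 UMIs (seed 1) left out 1516 shallower cells. Besides the members and the listed genes, the 5 genes most correlated with each member (at least 5 CPM over all cells, pseudocount 1) were named. Intervals were run on simulated Poisson and binomial counts without spread between cells or libraries. This checked their calculation only, not whether they cover the spread of these data. From the interferon-gamma-stimulated list 1 gene is not reported here and was left out of its sums. Positions come from the GENCODE vM21 annotation of GRCm38 and promoter windows from RefSeq. Alternatives were Leiden clusters (scanpy 1.11.5, 2000 variable genes, 30 components, 15 neighbours, resolution 1, 29 clusters), a stricter rule, other weights of libraries and cells, and leaving out each library. No source links a library number to a sample, so treatments were not compared.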

Additional observations from a re-analysis of the deposited data

Results flagged for a closer look

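Of 56 pairs of a gene and a class with at least 4 libraries, 2 had a library far from the others, and chance flags about 1 in 20. In B cell-like cells the Ly6a of library 2, 54.5 CPM, lay apart from the other libraries, of which the nearest had 116 CPM and the highest 135 CPM. In NK cell-like cells the Ly6a of library 5, 87.1 CPM, lay above the others, of which the nearest had 24.9 CPM.

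The 5984 cells that met no marker rule were used in no comparison between classes and still held all 7 genes. Their levels were 134 CPM for Ly6a, 1.43 CPM for Ly6c1, 579 CPM for Ly6c2, 424 CPM for Ly6d, 622 CPM for Ly6e, 162 CPM for Ly6g and 30.4 CPM for Ly6i. Over all cells the levels were 132, 6.31, 867, 175, 671, 172 and 22.4 CPM in the same order, so Ly6d stood higher among cells of no class than over all cells.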

How the results depend on the processing

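The level and the percent of positive cells in the leading class of each gene were recomputed, and a value is given where it moved by more than its 95% interval. Under Leiden clusters the levels were 1101 CPM for Ly6a, 838 for Ly6c1, 2083 for Ly6c2, 2247 for Ly6d, 1471 for Ly6e, 568 for Ly6g and 158 for Ly6i, and positive shares were 94.2% for Ly6g and 40% for Ly6i. The stricter rule gave 1843 CPM for Ly6c2, 2458 for Ly6d and 553 for Ly6g. The median library gave 1460 CPM for Ly6a, 1043 for Ly6c1, 1711 for Ly6c2 and 592 for Ly6g. The mean over cells gave 1081 CPM for Ly6a, 847 for Ly6c1, 1788 for Ly6c2, 2851 for Ly6d, 718 for Ly6g and 134 for Ly6i. Thinning gave shares of 89.8% for Ly6c2, 90.2% for Ly6d, 98.0% for Ly6e, 74.4% for Ly6g and 22.6% for Ly6i. Thinning takes UMIs away from each cell and so lowers such shares by design. The cause of the other shifts was not tested.

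Leaving out each library in turn gave 1089 to 1419 CPM for Ly6a, 646 to 1018 for Ly6c1, 1663 to 1865 for Ly6c2, 2557 to 2875 for Ly6d, 1537 to 1573 for Ly6e, 591 to 641 for Ly6g and 81.3 to 103 for Ly6i. Positive shares were 73.8 to 82.1%, 66.2 to 74.5%, 95.5 to 97.2%, 95.1 to 96.2%, 99.7 to 100%, 94.9 to 95.6% and 48.7 to 55.3% in the same order. The fold between the highest and lowest library was 11.9 to 21.8 for Ly6a and 5.52 to 13.3 for Ly6i in classical monocyte-like cells, and 3.06 to 21.9 and 2.95 to 19.9 in inflammatory macrophage-like cells, the lowest being without library 2. In this and in leaving out cells with a shared barcode, which moved 0 of 7 levels, the alternative was chosen after seeing the data.

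Ly6c1, Ly6d, Ly6g and Ly6i kept their leading class in all 9 settings. The classes compared were 23 under the marker rules, 22 under the stricter rule and 16 under Leiden clusters. Classes without a named cluster, such as CD8 T cell-like and type 2 dendritic cell-like cells, could not lead under Leiden clusters. Ly6a led in gamma-delta T cell-like cells under the stricter rule and in type 2 innate lymphoid cell-like cells without library 1, Ly6c2 in granulocyte precursor-like cells under the stricter rule and without library 1, 5 or 6, and Ly6e in nonclassical monocyte-like cells under Leiden clusters. Class ratios were recomputed under clusters, the stricter rule and the mean over cells, where both classes were available. These alternatives were chosen after seeing the data. Of these ratios, that of Ly6d for B to pre-B cell-like cells turned to 0.986 under the stricter rule and 0.988 as a mean over cells. The Ly6c2 ratio of gamma-delta to CD4 T cell-like cells turned to 0.113 under the stricter rule. The cause of these turns was not tested. No paired analysis was possible because no source links a library number to a sample and no test was made. Counting intervals are wide in small classes, such as 27 plasma cell-like and 37 basophil-like cells.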
